A study of Zea mays with 48 samples.

Results

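The bottom crown of maize seedlings was compared between plants whose shoot alone was chilled and unchilled control plants. The comparison used the 6 bottom-crown libraries labelled 4S26R (shoot-only chilling, n = 3) and 26S26R (control, n = 3), chosen by their labels, out of 12 bottom-crown libraries and 48 libraries in all. All plants were of the inbred line B73 at the 3-leaf stage and were grown at 26 °C before treatment. In the shoot-only condition the shoot was held at 4 °C and the root at 26 °C for 24 h, and in the control condition both were held at 26 °C. Bottom-crown libraries of whole-plant chilling (shoot and root at 4 °C, n = 3) and of root-only chilling (shoot at 26 °C, root at 0 °C, n = 3) entered the same fit, and leaf, top-crown and root libraries of the same 4 conditions served for comparison. The labels do not say at which temperature the crown itself was held, where the border between top and bottom crown lay, or how many plants a library stands for. RNA was counted by 3′ mRNA sequencing, which reads near the poly(A) end of transcripts, so counts do not grow with transcript length.

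The crown of a grass seedling is the compact zone where shoot and root meet. It carries the shoot apex and the bases of leaves and crown roots, and its survival decides whether a grass plant can regrow after cold. Maize is a chilling-sensitive species of tropical origin. In plant cells the mitochondrial genome encodes subunits of the respiratory complexes, part of the mitochondrial ribosome and its ribosomal RNAs, while most mitochondrial proteins are encoded in the nucleus. The nuclear identifiers of the files were not paired with gene names in the sources used here, so nuclear genes are described as groups and by a few identifiers without roles.

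Total counts of the 6 libraries ran from 5077521 to 6235871. Tissue markers by name could not be checked for the same lack of names. Shoot-only replicate 2 stood apart from its group. The chi-square per degree of freedom between counts was 13.0 and 10.99 in its pairs, against 4.37 between replicates 1 and 3 and at most 4.93 between control libraries. Its mitochondrial share of counts was 0.153%, against 0.0750% and 0.0654% in shoot-only replicates 1 and 3 and 0.211% to 0.324% in control. Among genes called and changed more than 2-fold without it, its median position was 75.8% of the change seen in the other replicates (2061 genes), against 87.9% for replicate 1 and 95.1% for replicate 3. Counts and folds of named genes that move by more than 1.5 times when it is left out are given with both values. Calls of organelle genes that change are given as well. Most other counts changed by less without it and are given for all libraries only.

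On principal components of all 12 bottom-crown libraries, the 4 conditions formed separate groups. Component 1 held 40.3% of the variance and component 2 held 20.4%. Control and shoot-only libraries both lay on the negative side of component 1, opposite to whole-plant and root-only libraries. On component 2 the shoot-only libraries lay beside the root-only libraries. Over all genes tested, log2 levels correlated at r = 0.927 to 0.934 between control and shoot-only libraries, and at r = 0.855 to 0.895 between control and root-only libraries. Pairs within control reached 0.976 to 0.978 and pairs within shoot-only 0.959 to 0.975. These values describe libraries over genes and carry no test.

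**Figure D1:**
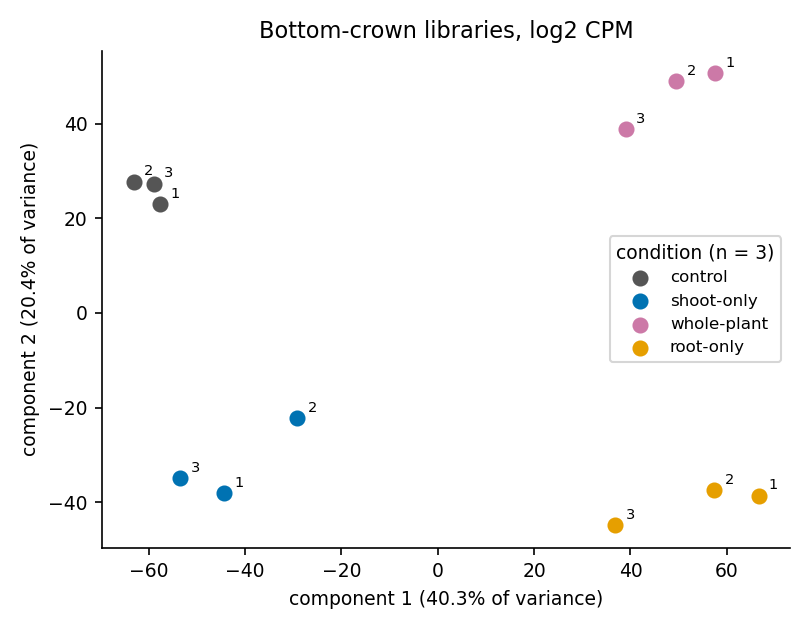
Principal components of log2 CPM for the 12 bottom-crown libraries, with component 1 (40.3% of variance) on the horizontal and component 2 (20.4%) on the vertical axis. Points are libraries, coloured by condition and numbered by replicate. Control and shoot-only libraries lie on the left, whole-plant and root-only libraries on the right, and shoot-only replicate 2 lies apart from shoot-only replicates 1 and 3.

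Shoot-only chilling changed 4912 of 18779 genes tested in the bottom crown (26.2%), of which 2695 rose (14.4%) and 2217 fell (11.8%). The test was edgeR's quasi-likelihood test with Benjamini-Hochberg adjustment at 0.05 on all 12 libraries. The median log2 fold change was 0.77 among genes that rose and -0.96 among genes that fell. More than 2-fold rises numbered 784 and more than 2-fold falls 1036. Beyond 8-fold there were 39 rises and 45 falls. The groups did not overlap for 4800 of the genes called, and for 8240 of all genes tested. Leaving out shoot-only replicate 2 gave 4841 calls, of which 4001 were calls of the full set. Leaving out control replicate 3 gave 3262 calls (1789 higher, 1473 lower), and leaving out shoot-only replicate 3 left 1431 genes lower.

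**Figure D2:**
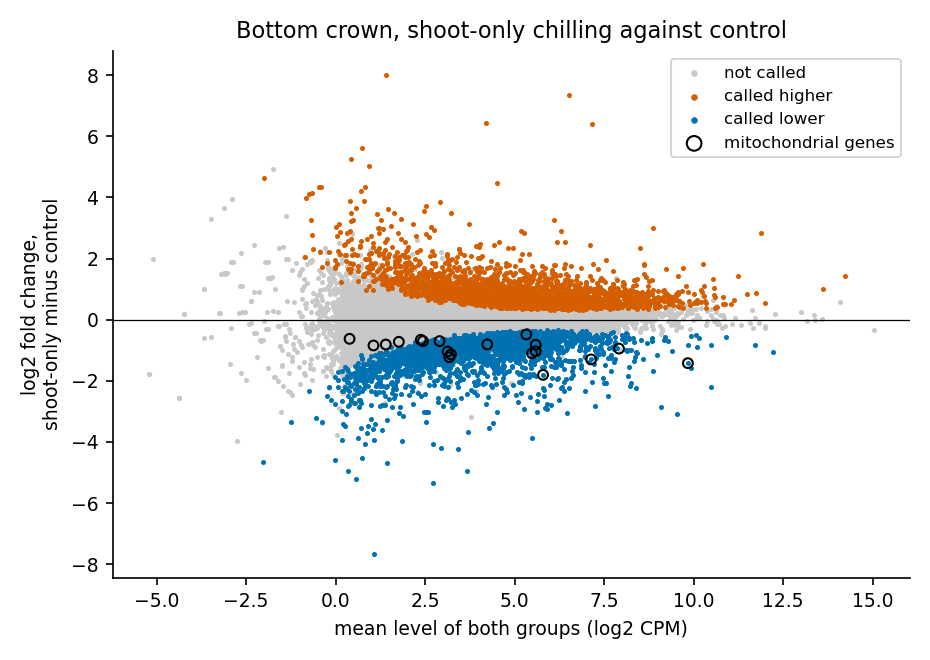
Log2 fold change of shoot-only chilling minus control in the bottom crown against the mean level of both groups in log2 CPM, 1 point per gene tested, except 1 gene with no counts in the 6 libraries. Genes called higher (2695) and lower (2217) are coloured, and the 19 mitochondrial genes tested, circled, all lie below 0.

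Genes that rose took a larger share of the library. They held 22.9%, 22.3% and 22.3% of counts in the control libraries and 35.5%, 34.3% and 36.1% in the shoot-only libraries. Genes that fell held 13.7%, 14.3% and 13.9% of control counts and 6.32%, 6.91% and 6.10% of shoot-only counts. The sets were chosen on these libraries, so the shares describe the size of the shift and carry no test. The balance of rises and falls depended on the scaling. When library sizes were used without TMM factors, 1611 genes rose and 3008 fell (34.9% higher, against 54.9% with TMM), and the median of all genes moved from 0.02 to -0.14 on the log2 scale.

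A few identifiers carried the largest changes. Those named for their log2 fold change, here and in later comparisons, were picked among genes whose groups did not overlap. That their groups lie apart is therefore no further support. Zm00001d011183 lay at 1.62, 0 and 1.74 CPM (counts scaled to a common library size after TMM adjustment) in the control libraries and at 190.3, 163.1 and 196.2 CPM in the shoot-only libraries. Every shoot-only library lay far above every control library, and the log2 fold change was 7.35 ± 0.61 (SE, n = 3 per group, edgeR adjusted p = 3.2e-05), or 6.75 without control replicate 2. The same gene was near 0 in the root under both conditions (at most 1.37 CPM on a scaling over all 48 libraries). It rose in the leaf from 13.8 to 45.1 CPM in control to 887 to 1832 CPM, and in the top crown (log2 fold change 7.30). In the bottom crown, root-only libraries held it at 202.5, 193.7 and 325.3 CPM. Whole-plant libraries held it at 31.0, 54.1 and 83.3 CPM. Zm00001d028548 lay at 0.97, 0.29 and 0 CPM in control and at 36.0, 46.5 and 27.3 CPM under shoot-only chilling. Its log2 fold change was 6.44 ± 0.43 (SE, edgeR adjusted p = 1.4e-06), and its groups were far apart. It was 7.80 without control replicate 1 and 5.85 without control replicate 3.

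Zm00001d044504 fell. It lay at 14.1, 14.9 and 9.40 CPM in control and at 0.18, 0.65 and 0 CPM under shoot-only chilling, a log2 fold change of -5.33 ± 0.62 (SE, edgeR adjusted p = 3.3e-05), or -6.79 without shoot-only replicate 2. In the top crown, where control libraries lay at 2.27 to 8.09 CPM, no shoot-only library had a count of this gene, which makes it at least 10.1-fold lower there at a floor of 3 counts per library. Zm00001d024522 lay at 12.5, 44.4 and 16.8 CPM in control and at 1.41, 0.49 and 0.42 CPM under shoot-only chilling. Its groups did not overlap, but its control libraries spread widely, and the log2 fold change of -4.94 (edgeR adjusted p = 0.019) lost its call without any single shoot-only library or without control replicate 2 (adjusted p from 0.051 to 0.068).

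The largest shifts in CPM were at abundant transcripts, singled out after their values were seen. Zm00001d031168 lay at 10590, 9722 and 11170 CPM in control and at 30740, 22740 and 30730 CPM under shoot-only chilling. All shoot-only libraries exceeded all control libraries, with a log2 fold change of 1.42 ± 0.18 (SE, edgeR adjusted p = 6.0e-05). Under whole-plant chilling its mean was 18770 ± 3576 CPM and under root-only chilling 21590 ± 2728 CPM (SD, n = 3). Zm00001d012675 fell from 5865, 6567 and 6960 CPM to 3082, 2909 and 3366 CPM, a log2 fold change of -1.05 (edgeR adjusted p = 0.00013).

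Part of the mitochondrial transcripts tested fell in the bottom crown after shoot-only chilling, and their summed level was lower. Of 208 mitochondrial identifiers, 19 passed the low-count filter, and all 19 estimates were below 0, with a median of -0.84 against 0.02 over all genes tested. The test called 7 of the 19 lower, 36.8% of those tested against 11.8% called lower among all genes. The summed level of all 208 identifiers was 2851, 1885 and 2108 CPM in control and 786, 1384 and 691 CPM under shoot-only chilling. Of these sums, the open reading frame orf99-d alone held 1860, 887 and 1259 CPM in control. It held 317, 854 and 324 CPM under shoot-only chilling. In the summed level every shoot-only library lay below every control library, with replicate 2 the nearest to control. Without shoot-only replicate 2 the test called 6 lower, but without shoot-only replicate 3 it called 2 and without control replicate 1 it called 3. Fewer mitochondria, less RNA per mitochondrion and a change in the share of cell types cannot be told apart in bulk RNA. Libraries were primed from poly(A), and most plant mitochondrial transcripts lack a stable poly(A) tail, so the counts cover only the captured part of organelle RNA.

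Among the respiratory genes, cox3, which encodes a subunit of cytochrome c oxidase, fell. It lay at 91.9, 84.2 and 83.3 CPM in control and at 26.9, 30.5 and 16.4 CPM under shoot-only chilling. All shoot-only libraries lay far below all control libraries, and the log2 fold change was -1.80 ± 0.43 (SE, n = 3 per group, edgeR adjusted p = 0.012). The other respiratory genes tested did not pass. Their log2 fold changes were -0.82 for nad4 (complex I, adjusted p = 0.21), -0.66 for cox1 (cytochrome c oxidase, 0.36) and -0.84 for atp4 (ATP synthase, 0.26), by the same edgeR test. The cytochrome c maturation genes ccmFC and ccmFN had -0.81 and -1.03 (adjusted p = 0.19 and 0.11).

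Genes of the mitochondrial ribosome gave further calls. The small-subunit protein gene rps1 lay at 193.2, 220.2 and 187.5 CPM in control and at 87.8, 94.8 and 61.0 CPM under shoot-only chilling. Its groups were well apart (log2 fold change -1.30 ± 0.30, SE, edgeR adjusted p = 0.0076). The rps12 gene, for another protein of the small subunit, lay at 12.8, 15.5 and 10.3 CPM in control and at 7.42, 5.05 and 4.99 CPM in shoot-only libraries (-1.14, adjusted p = 0.012). The small-subunit ribosomal RNA rrn18 lay at 63.8, 64.5 and 55.4 CPM in control and at 25.4, 33.9 and 26.0 CPM in shoot-only libraries (-1.10, adjusted p = 0.032). The groups of both genes were separate in every library. The calls of cox3 and rps1 were kept without each single library. The call of rrn18 was lost without any 1 of the 6 libraries (adjusted p from 0.055 to 0.11), and that of rps12 without shoot-only replicate 3 (0.052) or control replicate 2 (0.053). With no low-count filter rrn18 had an adjusted p of 0.076.

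The large-subunit ribosomal RNA rrn26 had 331.1, 331.1 and 292.4 CPM in control and 151.1, 206.7 and 137.3 CPM under shoot-only chilling. Its groups did not overlap, but its log2 fold change of -0.95 did not pass the test (edgeR adjusted p = 0.078). With only the 6 libraries compared, it passed (-0.97, adjusted p = 0.00071). The values for rrn5 and for rps7, a further small-subunit protein gene, were -0.48 and -0.70 (adjusted p = 0.13 and 0.11), and with only the 6 libraries both passed (0.038 and 0.045). The arginine transfer RNA trnR-a lay at 12.8, 11.6 and 11.1 CPM in control and at 6.01, 7.82 and 3.12 CPM in shoot-only libraries, and passed (-1.04, adjusted p = 0.019).

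Of the open reading frames without an assigned function, orf101-a and orf99-d passed the test. The orf101-a transcript lay at 16.1, 13.0 and 8.97 CPM in control and at 6.01, 5.54 and 4.58 CPM under shoot-only chilling (log2 fold change -1.23, edgeR adjusted p = 0.013). The orf99-d transcript lay at 1860, 887 and 1259 CPM in control and at 317, 854 and 324 CPM in shoot-only libraries (-1.42, adjusted p = 0.048), and its replicate 2 almost reached the lowest control library. Without replicate 2 the value was -2.05 (adjusted p = 0.0065). Both calls and that of trnR-a were lost without control replicate 1 or without shoot-only replicate 3 (adjusted p from 0.057 to 0.15), and that of orf99-d also without shoot-only replicate 1 (0.14) or control replicate 3 (0.092). The orf99-d call was also lost with library size alone (0.055), with no low-count filter (0.094) and with only the 6 libraries compared (0.073). The values for orf1159, orf119-a and orf140-b were -0.81, -0.70 and -0.72, and for the maturase gene mat-r -0.63, none of which passed. With only the 6 libraries compared, orf1159 (adjusted p = 0.0054) and the complex I gene nad4 (0.037) passed.

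**Figure D3:**
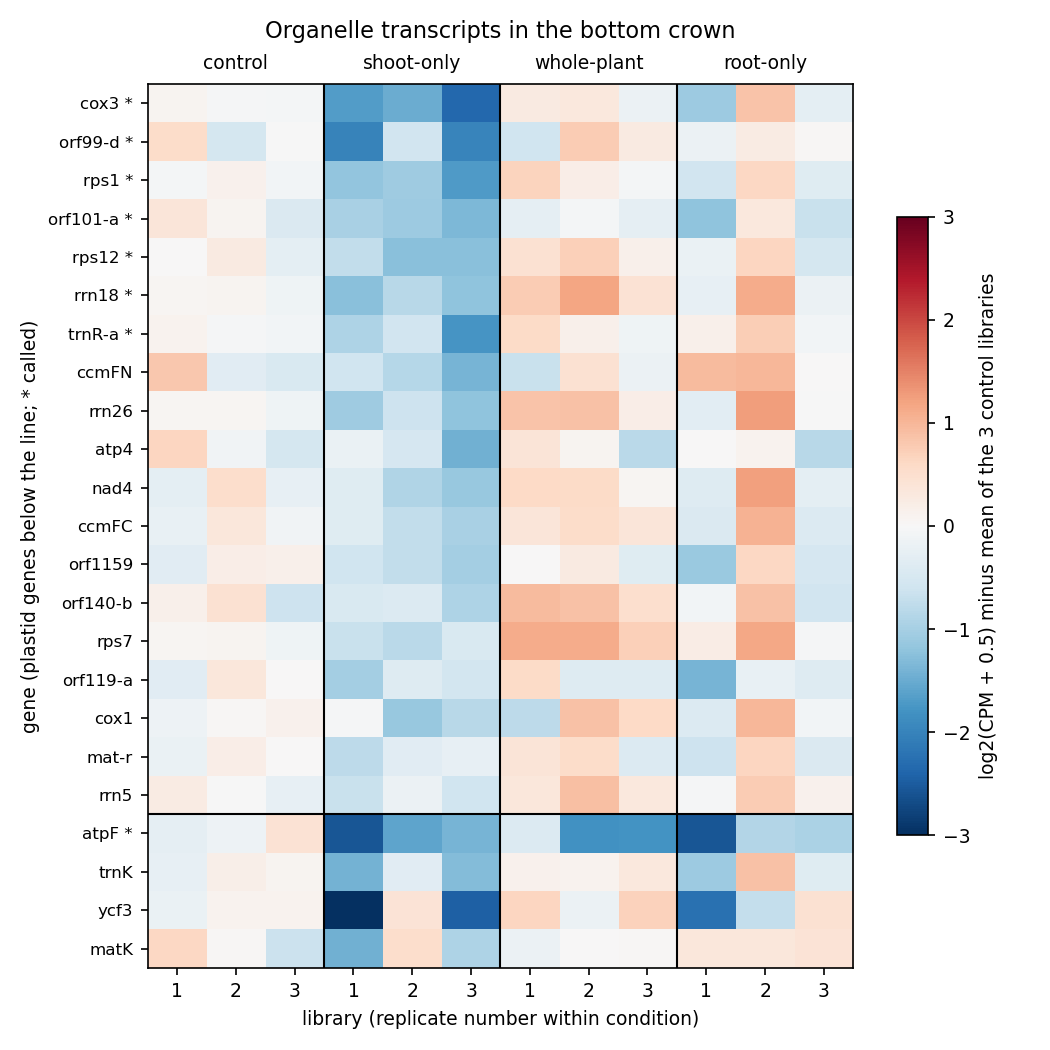
Levels of the 19 mitochondrial and 4 plastid genes tested in each bottom-crown library, as log2(CPM + 0.5) minus the mean of the 3 control libraries, with libraries grouped by condition and genes called in shoot-only chilling against control marked by an asterisk. Mitochondrial genes are blue (lower) in nearly all cells of the shoot-only columns. The plastid genes ycf3 and matK are low in shoot-only replicates 1 and 3 but not in replicate 2. The ycf3 gene is also low in root-only replicate 1.

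Plastid transcripts were scarce in the bottom crown, and 4 of 157 identifiers passed the filter. All 4 estimates were below 0, and the test called only atpF, a subunit gene of the plastid ATP synthase. It lay at 1.95, 2.17 and 3.47 CPM in control and at 0, 0.49 and 0.62 CPM under shoot-only chilling (log2 fold change -2.74, edgeR adjusted p = 0.024). These are few counts, and the call was lost without shoot-only replicate 1 (adjusted p = 0.088) or control replicate 3 (0.091). The other genes turned on shoot-only replicate 2. The photosystem I assembly gene ycf3 lay at 13.8, 17.1 and 17.2 CPM in control, at 1.41 and 2.50 CPM in shoot-only replicates 1 and 3, and at 21.5 CPM in replicate 2. With all libraries its log2 fold change was -0.88 (adjusted p = 0.51), and without replicate 2 it was -3.04 (0.023). The lysine transfer RNA trnK moved from -0.98 (0.12; 0.016 with only the 6 libraries compared) to -1.45 (0.046), and the maturase gene matK from -0.48 (0.51) to -1.56 (0.027). Without replicate 2 all 4 plastid genes were therefore called lower, with a median of -2.30 in place of -0.93. Plastid levels also varied within root-only chilling, where ycf3 lay at 2.97, 9.52 and 22.05 CPM. The plastid sums of those libraries were 14.2, 41.4 and 39.0 CPM.

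The ENSRNA features, a class of 1765 non-gene-model identifiers that the sources used here do not name, moved in both directions. Of 121 that passed the filter, 41 rose (33.9%) and 6 fell (4.96%), beside 14.4% higher and 11.8% lower among all genes tested, and the median log2 fold change was 0.69. A feature almost absent from control can pass the filter through the chilled libraries alone, and with no low-count filter the median was 0.16. Without control replicate 1 the median was 0.99. The 41 that rose summed to 120, 97.0 and 94.6 CPM in control and to 383, 393 and 395 CPM under shoot-only chilling. They were chosen on these libraries, so these 41 features' sums describe the size of the shift and carry no test. The sum of all ENSRNA features was nevertheless 961, 850 and 857 CPM in control and 831, 977 and 885 CPM under shoot-only chilling, so the groups overlapped.

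The most abundant feature of that class ran the other way. ENSRNA049469775, singled out after its values were seen, lay at 427.7, 448.7 and 420.8 CPM in control and at 111.3, 193.8 and 143.0 CPM under shoot-only chilling. All shoot-only libraries lay below all control libraries (log2 fold change -1.53, edgeR adjusted p = 0.0019). The most abundant of those that rose, ENSRNA049456692, went from 13.5, 12 and 9.54 CPM to 38.9, 38.8 and 50.4 CPM (1.87, adjusted p = 6.3e-06). The 154 microRNA loci had no count in any bottom-crown library, which at these depths and with poly(A) priming says nothing about mature microRNAs.

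Organ-enriched genes were defined in the whole-plant and root-only libraries as those with at least 10 CPM in 1 organ and at least 8 times the level of each other organ, with both crown parts taken as 1 organ. These libraries came from chilled plants, so a gene that chilling raised in an organ could enter the group of that organ. How far the definition itself shaped the shares and sums below was not tested. Of 190 crown-enriched genes, all tested, 59 rose (31.1%) and 14 fell (7.37%), beside 14.4% and 11.8% of all genes tested. Their median log2 fold change was 0.47 against 0.02 over all genes tested. Their summed level was 11560, 11150 and 10310 CPM in control and 13780, 12140 and 13820 CPM under shoot-only chilling, and the groups did not overlap. Of 1124 leaf-enriched genes, 875 were tested, 64 rose (7.31%) and 180 fell (20.6%), with a median of -0.21. Their sums were 15480, 17350 and 18840 CPM in control and 14150, 13330 and 16340 CPM in shoot-only libraries, which overlapped. The number of leaf-enriched genes that fell was 110 without shoot-only replicate 1, 118 without control replicate 2 and 109 without control replicate 3.

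Of 392 root-enriched genes, 266 were tested, 22 rose (8.27%) and 29 fell (10.9%), where 14.4% of all genes tested rose and 11.8% fell, and the median was 0.00. Their sums of 2246, 2164 and 2583 CPM in control and 2290, 2387 and 2040 CPM in shoot-only libraries overlapped. Without shoot-only replicate 2 the median was -0.19, and without shoot-only replicate 3 the number that fell was 19. With library size alone the medians were 0.31 for crown-enriched, -0.37 for leaf-enriched and -0.14 for root-enriched genes, where the median of all genes was -0.14. A shift in the share of tissue in a dissected crown and a change of expression in its cells cannot be told apart in these sums.

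**Figure D4:**
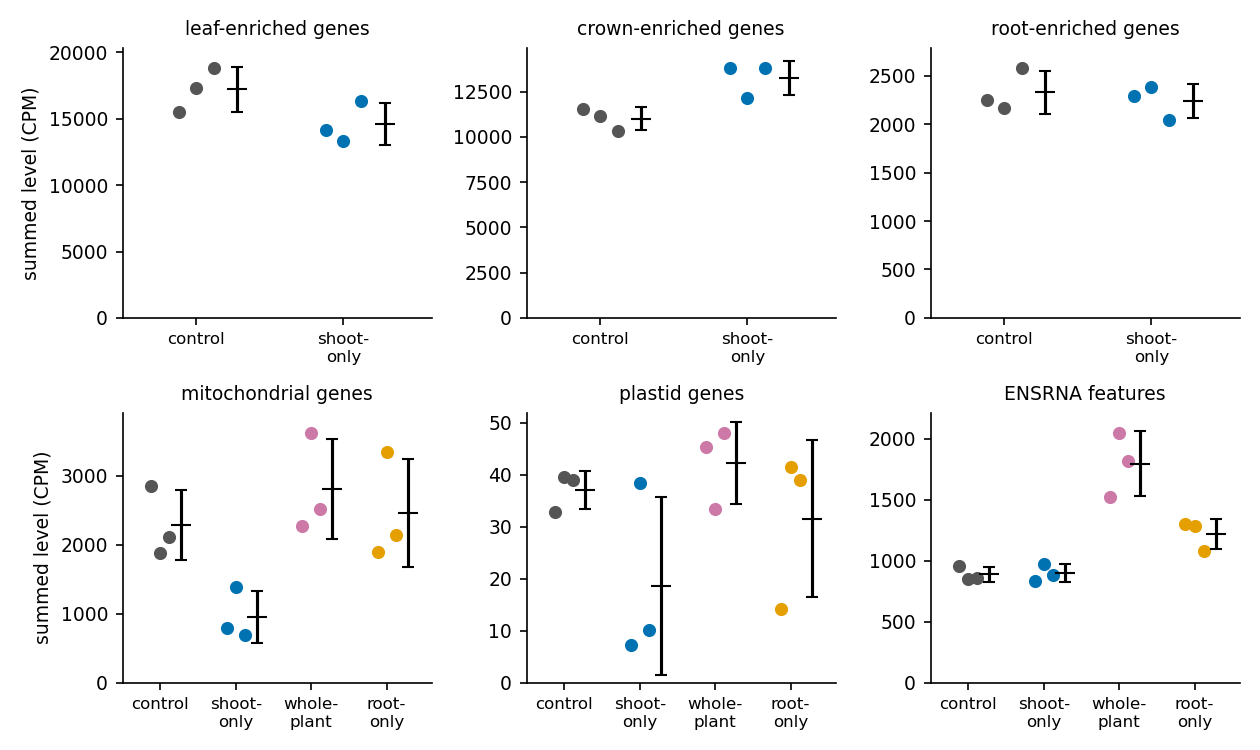
Summed level in CPM of 6 gene groups in bottom-crown libraries, 1 point per library, with the mean and SD of 3 libraries beside the points and axes starting at 0. Organ-enriched genes are shown for control and shoot-only chilling only, since the other libraries defined them. Mitochondrial sums of the shoot-only libraries (691 to 1384 CPM) lie below those of every other library. In the shoot-only libraries orf99-d alone makes up 317 to 854 CPM of these sums. Plastid sums are low in shoot-only replicates 1 and 3 and in root-only replicate 1. ENSRNA sums of control and shoot-only libraries overlap.

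Shoot-only chilling was next set against the other chilling conditions within the bottom crown, each compared directly. Shoot-only and whole-plant chilling differ in the temperature of the root only. Between them 7435 genes differed (39.6%), 3849 higher (20.5%) and 3586 lower (19.1%) under shoot-only chilling. Between shoot-only and root-only chilling 6406 genes differed (34.1%), 2981 higher (15.9%) and 3425 lower (18.2%) under shoot-only chilling. Against control, whole-plant chilling changed 6577 genes (35.0%, with 17.6% higher and 17.4% lower), and root-only chilling 7393 genes (39.4%, with 21.4% higher and 18.0% lower). All of these comparisons share libraries with the main one. The 2695 genes that rose under shoot-only chilling had a median log2 fold change against control of 0.77 there, 0.31 under whole-plant and 0.49 under root-only chilling. The 2217 genes that fell had medians of -0.96, -0.38 and -0.64. Both sets were chosen by their shoot-only calls, so the shoot-only medians carry that selection. Their sizes can therefore not be ranked between conditions.

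The summed level of mitochondrial transcripts was lower under shoot-only chilling than under either other chilling condition. Against whole-plant chilling all 19 estimates were below 0, with a median of -1.26, and 12 were called lower (63.2%, beside 19.1% of all genes). Against root-only chilling all 19 were again below 0, with a median of -1.16, and 10 were called lower (52.6%, beside 18.2%). The summed level was 2266, 3621 and 2518 CPM under whole-plant chilling and 1888, 3347 and 2132 CPM under root-only chilling. Here orf99-d alone held 846, 2172 and 1530 CPM of the whole-plant sums and 1133, 1502 and 1306 CPM of the root-only sums. The summed levels of the shoot-only libraries lay below all of these sums. By contrast, whole-plant chilling against control gave 1 mitochondrial call, rps7 higher (log2 fold change 1.04, edgeR adjusted p = 0.008), and root-only chilling gave 0 of 19 in the same edgeR test, with 0 of 19 also at an unadjusted p under 0.05.

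The named genes with the largest differences were lower under shoot-only chilling. Whole-plant libraries held cox3 at 104.6, 108.0 and 76.8 CPM, and the difference of shoot-only minus whole-plant chilling was -1.96 on the log2 scale (edgeR adjusted p = 0.005). They held rrn18 at 104.7, 139.0 and 82.5 CPM (-1.93, adjusted p = 0.001) and rps7 at 15.1, 15.0 and 11.4 CPM against 4.06, 3.59 and 4.79 CPM in shoot-only libraries (-1.74). Root-only libraries held cox3 at 40.5, 156.0 and 69.9 CPM (-1.85, adjusted p = 0.008) and ccmFN at 115.1, 118.6 and 60.4 CPM against 39.1, 32.9 and 22.5 CPM in shoot-only libraries (-1.63, 0.016). None of these groups overlapped.

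Other groups also differed between the chilling conditions. Of 121 ENSRNA features, 50 were lower (41.3%) and 13 higher (10.7%) under shoot-only than under whole-plant chilling. Against root-only chilling 37 were lower (30.6%) and 12 higher (9.92%). Their summed level was 1522, 2051 and 1820 CPM under whole-plant and 1298, 1285 and 1082 CPM under root-only chilling, above all shoot-only libraries. Against control the medians of these features were 1.66 under whole-plant and 1.26 under root-only chilling, beside 0.69 under shoot-only chilling, with shared control libraries.

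Single identifiers separated the conditions further. Zm00001d007444 lay at 363.2, 204.0 and 289.7 CPM under shoot-only chilling and at 4.66, 12.3 and 2.56 CPM under root-only chilling. Control libraries lay at 3.74, 4.19 and 2.17 CPM and whole-plant libraries at 7.64, 19.4 and 14.6 CPM, so that the 3 shoot-only libraries stood alone. The log2 difference from root-only chilling was 5.45 ± 0.53 (SE, edgeR adjusted p = 4.6e-05), or 6.32 without root-only replicate 2. In the top crown the gene reached 1.11 to 6.19 CPM under shoot-only chilling and at most 0.13 CPM in control.

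Zm00001d046157 lay at 10.6, 12.9 and 9.37 CPM under shoot-only chilling, within the range of control (9.11 to 15.8 CPM), and at 0, 0.37 and 0.34 CPM under root-only chilling (difference 5.35, edgeR adjusted p = 2.4e-06). Zm00001d007411 showed the opposite, with 18.5, 20.1 and 37.1 CPM under root-only chilling and at most 0.18 CPM in control, shoot-only and whole-plant libraries (-8.29, adjusted p = 1.9e-07, or -10.27 without shoot-only replicate 1). Zm00001d038703 lay at 8.48, 121.2 and 11.8 CPM under root-only chilling and at most 0.33 CPM under shoot-only chilling (-7.88, adjusted p = 0.0056), with 1 root-only library far above the others. Its value was -5.67 without that library (root-only replicate 2) and -8.67 without shoot-only replicate 2.

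Against whole-plant chilling, Zm00001d008007 lay at 12.5, 9.62 and 17.1 CPM under shoot-only chilling and at 0, 0.34 and 0.35 CPM under whole-plant chilling (5.88, edgeR adjusted p = 3.6e-06, or 5.15 without whole-plant replicate 1). Zm00001d027742 lay at 27.2, 7.66 and 24.8 CPM and at 0.69, 0.51 and 1.05 CPM (4.69, adjusted p = 4.5e-05), with shoot-only replicate 2 lowest in its group. Zm00001d008223 lay at 0.18, 0 and 0 CPM under shoot-only chilling and at 63.2, 78.4 and 33.9 CPM under whole-plant chilling (-9.50, adjusted p = 6.2e-05, or -11.48 without shoot-only replicate 1). Zm00001d006948 lay at 0.18, 0 and 0 CPM under shoot-only chilling and at 92.2, 2.21 and 0.70 CPM under whole-plant chilling. Its call (-8.65, adjusted p = 0.046) rested on 1 whole-plant library and was lost without that library (0.20) or without any shoot-only library (0.12 to 0.15), and with no low-count filter (0.066).

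The response to shoot-only chilling was then followed into the other tissues, whose libraries are separate. The top crown resembled the bottom crown. Of the genes that rose in the bottom crown, 2612 were tested in the top crown, where 1332 also rose (51.0%) and 11 fell. In the top crown 23.9% of all genes tested were called, 11.4% higher and 12.5% lower. Of the genes that fell, 1964 were tested there, 1108 also fell (56.4%) and 1 rose. Seen from the top crown, the shared genes made up 65.8% of its rises and 50.1% of its falls. Log2 fold changes of the crown parts correlated at r = 0.742 over 16954 genes, as a description across genes.

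The leaf, which was chilled, shared less with the bottom crown. Of 2347 rises tested in the leaf, 630 also rose (26.8%) and 118 fell, where 29.4% of all genes were called, 15.2% higher and 14.2% lower. Of 1870 falls tested, 507 also fell (27.1%) and 136 rose. The correlation with the leaf was 0.299 over 15002 genes. In the root, which was held at 26 °C, 265 of 2547 rises also rose (10.4%) and 368 fell (14.5%), where 22.3% of all genes were called, 9.63% higher and 12.6% lower. Of 2048 falls, 336 also fell (16.4%) and 198 rose (9.67%). The shares that rose in the root were near its background of 9.63%. The shares that fell there, 14.5% and 16.4%, lay above its 12.6%. The correlation with the root was 0.044 over 17203 genes. Without control replicate 2, the number of genes higher in both bottom crown and root was 173.

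**Figure D5:**
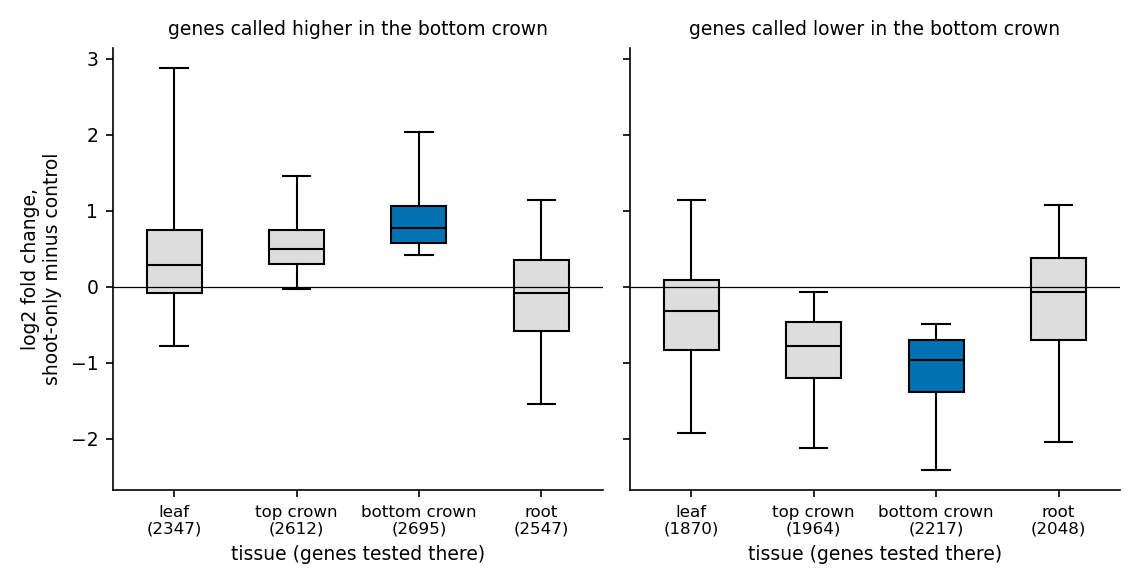
Log2 fold change of shoot-only chilling minus control in leaf, top crown, bottom crown and root, for genes called higher (left) and lower (right) in the bottom crown, with the number tested in each tissue in brackets. Boxes span the quartiles, lines mark medians and whiskers reach the 5th and 95th percentiles over genes. The bottom-crown boxes show the selection itself. Medians for genes called higher are 0.49 in the top crown, 0.28 in the leaf and -0.07 in the root.

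Of 2264 bottom-crown rises tested in all 4 tissues, 70 rose in all of them (3.09%). In top crown and leaf, without a call in the root, 276 rose (12.2%). In the top crown, without a call in leaf or root, 623 rose (27.5%), and 581 were called in no other tissue (25.7%). Of 1692 falls tested in all 4 tissues, the matching numbers were 65 (3.84%), 209 (12.35%), 452 (26.7%) and 413 (24.4%). Among all 13741 genes so tested, 95 rose in top crown, leaf and root. A rise in top crown and leaf without a root call held for 364, and one in the top crown without a leaf or root call for 905. The matching falls numbered 111, 313 and 812. A missing call in a tissue does not show that the gene was unaffected there.

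Genes chosen by their calls in leaf and root, whose libraries took no part in the bottom-crown fit, were also read in the bottom crown. Over the 13741 genes tested in all tissues, 16.5% rose and 12.3% fell in the bottom crown. Of 203 genes that rose in the chilled leaf and fell in the warm root, 58 rose (28.6%) and 20 fell (9.85%) in the bottom crown, with a median log2 fold change of 0.27. Of 169 genes that fell in the leaf and rose in the root, 6 rose (3.55%) and 53 fell (31.4%), with a median of -0.21. Where leaf and root were opposite, the bottom crown thus more often had the direction of the leaf. Of 344 genes that rose in both, 115 rose (33.4%) and 13 fell. For genes called in the root but not in the leaf, the shares were 13.2% higher and 12.4% lower where the root rose (905 genes), and 20.5% higher and 13.6% lower where the root fell (1089 genes).

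The gene groups were also read in each tissue, as values side by side. Mitochondrial genes had a median of -0.67 in the top crown, with 4 of 20 called lower (20.0%, beside 12.5% of all genes). In the root the median was 0.07, with 0 of 24 called by edgeR (1 at an unadjusted p under 0.05). In the leaf it was 0.50, with 3 of 20 called higher (15.0%, near the leaf's 15.2%). Of 98 ENSRNA features tested in the top crown, 45 rose (45.9%, beside 11.4% of all genes) and 4 fell. In the leaf 84 of 118 rose (71.2%, beside 15.2%) and 1 fell, and in the root 1 rose and 10 fell of 193 (5.18% lower, beside 12.6%). Crown-enriched genes had medians of 0.10 in the top crown, with 39 higher and 35 lower of 190 (20.5% and 18.4%), and -1.06 in the root, with 3 higher and 33 lower of 114 tested (2.63% and 28.9%). In the interaction test of bottom against top crown, 0 of 20 mitochondrial genes, 0 of 128 ENSRNA features and 1 of 190 crown-enriched genes were called by edgeR. Of all genes tested 19 of 19595 were called (0.097%), so these counts do not show equal responses. Crown-enriched genes had a median difference of 0.43, with 153 of 190 estimates above 0. Over all genes the median was 0.07, with 11199 of 19595 above 0. For ENSRNA features the median was -0.05.

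The difference between responses was tested as an interaction. Bottom and top crown differed for 19 of 19595 genes (0.097%), with 15 responses higher (0.0766%) and 4 lower (0.0204%) in the bottom crown, in edgeR's quasi-likelihood test over 24 libraries. At an unadjusted p under 0.05 there were 1736, so that a lack of calls does not show equal responses. DESeq2 called 104. The count was 25, 27 and 10 without shoot-only replicates 1, 2 and 3, and 2, 21 and 1 without control replicates 1, 2 and 3. Of the 15 higher, 5 rose in the bottom crown without a call in the top crown, 5 fell in the top crown without a call in the bottom crown, 4 rose in the one and fell in the other, and 1 rose in both. The 20 mitochondrial genes tested had a median difference of -0.38, and 16 of the 20 estimates were below 0, but 0 passed edgeR's test and 1 had an unadjusted p under 0.05.

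Zm00001d044705 moved in opposite directions in the crown parts. It lay at 77.8, 94.3 and 81.4 CPM in bottom-crown control libraries and at 20.5, 13.0 and 13.5 CPM under shoot-only chilling. In the top crown it went from 18.4, 18.2 and 13.4 CPM to 37.5, 33.7 and 53.8 CPM on the scaling over 48 libraries. The log2 fold changes were -2.43 and 1.31, and their difference was -3.75 ± 0.35 (SE, edgeR adjusted p = 2.7e-06). Zm00001d045393 rose from 14.9, 13.5 and 10.8 CPM to 133.2, 95.8 and 144.0 CPM in the bottom crown and had a smaller rise in the top crown (3.25 against 0.67, difference 2.56, adjusted p = 0.016). Zm00001d039241 rose from 5.20, 6.07 and 4.48 CPM to 21.7, 24.5 and 21.2 CPM in the bottom crown, where the top crown held at most 1.85 CPM (difference 2.74, adjusted p = 0.023). Zm00001d032072 fell from 18.5, 20.7 and 21.4 CPM to 10.8, 4.73 and 6.24 CPM in the bottom crown (difference -1.81, adjusted p = 0.046). The last 3 calls depended on single libraries, among them control replicate 3 for each (adjusted p from 0.055 to 0.11 without it).

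Bottom crown and root differed for 4732 of 20595 genes (23.0%), with 2710 responses higher (13.2%) and 2022 lower (9.82%) in the bottom crown. Of the 2710, 368 rose in the bottom crown and fell in the root, 853 rose in the bottom crown without a call in the root, and 1048 fell in the root without a call in the bottom crown. Of the 2022, 198 fell in the bottom crown and rose in the root, 674 fell in the bottom crown without a call in the root, and 772 rose in the root without a call in the bottom crown. Of 24 mitochondrial genes tested, 2 had a lower response (8.33%, beside 9.82% of all genes), a share near the background. They were orf101-a (difference -1.66, edgeR adjusted p = 0.037) and orf99-d (-1.95, adjusted p = 0.013). In the root orf99-d lay at 858, 1639 and 1861 CPM in control and at 1363, 2002 and 2683 CPM under shoot-only chilling, and these ranges overlapped.

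Zm00001d042922 was the clearest opposite response. It fell in the bottom crown from 14.6, 23.6 and 23.1 CPM to 0.71, 1.79 and 0.62 CPM (log2 fold change -4.22) and rose in the root from 2.26, 3.07 and 1.98 CPM to 12.5, 45.4 and 15.9 CPM (3.36), a difference of -7.60 (edgeR adjusted p = 1.2e-06), or -8.26 without shoot-only replicate 2. Zm00001d051251 lay at 24.5, 23.3 and 26.9 CPM in bottom-crown control and at 3.36, 2.77 and 1.87 CPM under shoot-only chilling. It did not pass against control (-3.20, adjusted p = 0.067), while its response differed from that of the root (-6.80, adjusted p = 0.00019), where it rose from 1.73 to 5.93 CPM to 31.9 to 58.3 CPM. The response of Zm00001d011183 also differed from that of the root (6.84, adjusted p = 0.010, or 6.24 without control replicate 2).

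Zm00001d036050 had a fitted difference of 6.40 (edgeR adjusted p = 0.00082), and no shoot-only root library had a count of it. Root control libraries lay at 3.47, 2.67 and 1.41 CPM, which makes it at least 5.5-fold lower in the root with a floor of 3 counts in each library. The fitted value is no bound, and DESeq2 gave 5.78. In the bottom crown it lay at 16.7, 14.6 and 18.5 CPM in control and at 12.2, 10.6 and 8.12 CPM under shoot-only chilling (-0.68, adjusted p = 0.052), groups that did not overlap but did not pass the test.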

How the data were processed

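RNA of 48 maize B73 libraries was counted by QuantSeq 3′ mRNA sequencing on an Illumina NextSeq, per the labels' protocols. The authors deposited raw counts per gene and library, over 46430 identifiers, and these counts were the only input. Their tables of normalised values were not used. Per the submitters' processing notes, STAR (an aligner) and edgeR were used, without versions. The sources used here give no genome build, counting step, strand setting or handling of molecular identifiers. Overlapping, antisense or near-identical genes can share reads and are uncertain, and no coordinates or sequences are given.

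The main test was edgeR 4.0.16 (R 4.3.3) on the 12 bottom-crown libraries: filterByExpr over 4 conditions, TMM, robust quasi-likelihood fits of condition means without a replicate block, and Benjamini-Hochberg adjustment at 0.05. Standard errors come from the F value. Responses of bottom crown and top crown, and of bottom crown and root, were compared by interactions over 24 libraries each. Alternatives were DESeq2 1.42.0, other scalings, no low-count filter, fewer libraries, a replicate block and leaving out single libraries. The code was tested on simulated data. Bottom-crown totals ran from 5077521 to 8633854, and floors of 3 counts cover counting error only. No pair of replicates agreed within sampling noise. The design text calls them biological repeats without further detail, so p-values refer to the spread among these libraries. All 12 libraries carry the same flow-cell code, so no sequencing batch could be compared.

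The members, groups and lists were chosen with earlier results of these data known. Of the identifiers, 0 nuclear gene models and 0 ENSRNA features matched a name in the name table used (assembly NAM-5.0), while 153 of 154 microRNA loci and all 208 mitochondrial and 157 plastid genes did. The lists of pathway and tissue marker genes could therefore not be filled. Named were all organelle genes called and, per comparison, the 2 unnamed identifiers with the largest rise and the 2 with the largest fall that passed the test, had a mean of at least 10 CPM in a compared group and did not overlap between groups.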

Additional observations from a re-analysis of the deposited data

Results flagged for a closer look

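The response to shoot-only chilling differed between tissues by the interaction test for 19 genes between bottom crown and top crown and for 4732 genes between bottom crown and root. Against the top crown, the largest named differences on the log2 scale were 2.74 for Zm00001d039241 and 2.56 for Zm00001d045393, higher in the bottom crown, and -3.75 for Zm00001d044705 and -1.81 for Zm00001d032072, lower there. Against the root they were 6.84 for Zm00001d011183, 6.40 for Zm00001d036050, -7.60 for Zm00001d042922 and -6.80 for Zm00001d051251. Of 24 mitochondrial genes tested against the root, orf99-d (-1.95) and orf101-a (-1.66) had a lower response in the bottom crown (8.33%, near the 9.82% of all genes). Groups of 3 libraries are too small for a test of single outlying libraries, and the values of shoot-only replicate 2 are given with the results above.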

How the results depend on the processing

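With each single library left out in turn, the main comparison gave 3262 to 4841 calls, of which 1789 to 2646 were higher and 1431 to 2195 lower. The interaction with the top crown gave 1 to 27 calls. Mitochondrial genes called lower numbered 2 to 6, plastid genes 0 to 4 with medians from -2.30 to -0.57, and leaf-enriched genes 109 to 156. Root-enriched genes called lower numbered 19 to 34, with medians from -0.19 to 0.075, the ENSRNA median ran from 0.62 to 0.99, and 173 to 243 genes were higher in both bottom crown and root. Without shoot-only replicate 2, 35 ENSRNA features rose in place of 41, and 147 leaf-enriched genes fell in place of 180. The interaction with the root then gave 4354 calls in place of 4732. Scaling by library size gave 1611 genes higher, of which 148 were also higher in the root, and medians of -0.37 for leaf-enriched, 0.31 for crown-enriched and -0.14 for root-enriched genes. The interaction with the top crown gave 104 calls with DESeq2, 65 with no low-count filter and 30 with control and shoot-only libraries alone. With only the 6 libraries compared, 11 mitochondrial and 2 plastid genes were called lower. The ENSRNA median with no filter was 0.16. The cause of these differences was not tested. Of 300 recomputed counts and medians, 267 stayed within 1.5 times the count or 1 SD of the median, and 33 moved further. Among these 33, the root-enriched median changed sign. It was 0.0026 in the main fit, -0.14 with library size alone and -0.19 without shoot-only replicate 2.

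Whether replicate numbers pair the samples could not be settled. Deviations of same-numbered control and shoot-only libraries correlated at r = 0.17, 0.04 and 0.04. Control replicates 1 and 3 correlated best with their own number. Control replicate 2 correlated at 0.038 with its own number and at 0.048 with shoot-only replicate 3. With 3 libraries per group these values are too few to decide on pairing. With the replicate number as a block, the main comparison gave 2733 genes higher and 2237 lower, the interaction with the top crown 36 calls, and plastid genes 2 lower. Single genes not called in the main fit but called by edgeR with the block were rrn26 (adjusted p = 0.013), rrn5 (0.043) and trnK (0.031). Of 43 results for single genes, 11 lost their call under at least 1 alternative and 8 gained one. Only results called in the main fit could lose a call, and only the others could gain one. Neither count is therefore a rate out of 43. At these depths a gene at 1 CPM has few counts per library, so that changes of scarce transcripts were often not detectable.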
